A study of Mus musculus with 107 samples.

Results

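The epidermal growth factor ligands and their receptors were followed in mouse ear skin exposed to sulfur mustard, bis-(2-chloroethyl) sulfide, an alkylating vesicant. The genes were chosen by symbol: the ligands Epgn, Hbegf, Areg, Ereg, Tgfa and Btc, the receptors Egfr, Erbb2 and Erbb3, and the receptor inhibitor Errfi1. The choice was made after Epgn had been seen to rise with mustard. The differences between mustard and vehicle ears are therefore given below as a description with no p-value. So are those of Epgn in the pretreated groups from the mustard or the vehicle ears. Counts of called genes in the contrast of mustard with vehicle stand beside the share of all genes called, and nothing is read from them. Of the 10 listed genes, 9 had at least 1 probe set that the platform annotation gives to that symbol alone, among 18194 genes named in this way. These 9 genes had 21 probe sets, 19 on the array called A here and 2, both for Egfr, on its companion array B, and 20 of them passed the filter on low signals, the exception being 1 of 2 for Erbb3. Areg had no probe set named for it and is not analysed here.

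The 107 arrays measured total RNA from ear skin biopsies taken 24 h after exposure, 64 on array A and 43 on array B. The exposed groups received 0.08 mg (0.5 µmol) of sulfur mustard in methylene chloride on the inner face of the right ear, either alone (5 ears, here called mustard) or 15 min after a drug in ethanol. The drugs were 6.25 mg (50.3 µmol) of dimercaprol, a dithiol chelator (6 ears), 1.34 mg (3.74 µmol) of indomethacin, a cyclooxygenase inhibitor (6 ears), and octylhomovanillamide, a capsaicin analog (5 ears), at 0.6 mg by the sample labels and 0.585 mg (1.995 µmol) by the protocol. The vehicle group was 21 left ears given methylene chloride alone. These 5 groups were hybridised to both arrays. On array A only there were 5 ears from 3 naive, untreated animals, 3 left ears given ethanol, and right ears given dimercaprol (4), indomethacin (4) or octylhomovanillamide (5) without mustard. The labels give no strain, sex or age, no group given ethanol before mustard, and no drug treatment for the left ears of pretreated animals. Each ear is from 1 numbered animal, and 17 animals had both a vehicle and an exposed ear on the arrays.

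The ligands are made as membrane-anchored precursors and released by metalloproteases. They bind EGFR or ERBB4, and the receptors then pair with each other, with ERBB2 as the preferred partner and ERBB3 as a partner whose own kinase is weak. In skin this family drives keratinocyte migration and proliferation during wound closure, and ERRFI1 (MIG6) is a feedback inhibitor that binds the active receptor kinase.

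In the RefSeq annotation of GRCm38.p6, 4 of the ligand genes lie next to each other on chromosome 5 in the order Epgn, Ereg, Areg and Btc, with 3 noncoding RNA genes among them and no other protein-coding gene. Promoter windows of 300 bases (250 before to 50 after the annotated start) were found for 7 of the 10 listed genes. The windows of Epgn (chr5:91027267-91027566, plus strand) and Btc (chr5:91402945-91403244, minus strand) are shown because these neighbouring ligand genes moved in opposite directions, and that of 1 of the 2 annotated Errfi1 starts (chr4:150854820-150855119, plus strand) because it holds a motif match, in capitals.
Epgn: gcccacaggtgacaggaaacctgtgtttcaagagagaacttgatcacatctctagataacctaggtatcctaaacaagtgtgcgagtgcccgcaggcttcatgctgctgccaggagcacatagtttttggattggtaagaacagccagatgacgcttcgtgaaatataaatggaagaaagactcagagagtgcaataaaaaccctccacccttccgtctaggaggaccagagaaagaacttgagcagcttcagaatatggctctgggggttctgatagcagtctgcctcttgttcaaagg
Btc: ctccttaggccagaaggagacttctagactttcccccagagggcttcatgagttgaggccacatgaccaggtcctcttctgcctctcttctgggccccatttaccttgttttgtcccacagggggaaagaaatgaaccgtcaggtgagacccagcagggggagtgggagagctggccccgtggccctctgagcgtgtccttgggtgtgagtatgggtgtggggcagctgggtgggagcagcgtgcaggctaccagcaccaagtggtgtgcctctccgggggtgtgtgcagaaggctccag
Errfi1: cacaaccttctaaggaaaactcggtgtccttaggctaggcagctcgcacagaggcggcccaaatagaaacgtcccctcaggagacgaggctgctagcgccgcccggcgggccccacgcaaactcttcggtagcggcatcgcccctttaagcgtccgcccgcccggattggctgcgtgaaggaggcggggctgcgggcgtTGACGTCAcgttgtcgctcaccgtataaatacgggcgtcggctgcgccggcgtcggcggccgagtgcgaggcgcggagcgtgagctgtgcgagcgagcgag
Both strands were searched for TGANTCA, the site bound by Fos and Jun dimers, and for TGACGTCA, the cAMP response element. Neither motif occurred in the Epgn, Btc, Tgfa, Egfr or Erbb2 windows, nor in that of the other Errfi1 start. TGACGTCA occurred once in the Errfi1 window shown, and once in that of Areg. These 2 matches lie in separate windows and do not overlap any other match. Of 32851 promoter windows of this length, 7.81% held TGANTCA and 1.79% held TGACGTCA. A match is only a description of the letters in the window.

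Signals are the deposited intensities scaled so that each array had a trimmed mean of 500, and are printed in those units. Differences are on the log2(signal + 16) scale, ± the standard error from limma, with p-values adjusted by Benjamini-Hochberg over all probe sets kept on that array. A gene is represented by its kept probe set of highest mean log2(signal + 16) over both arrays, and a gene was called at an adjusted p below 0.05. Before scaling, the trimmed mean ranged 4.01-fold over the array A arrays and 2.77-fold over the array B arrays. The mustard arrays were dim, with trimmed means of 66.9 to 137 on array A against 111 to 222 in vehicle ears. Of these, the ears of animals 5 and 37 had the highest Gapdh 3′ to 5′ ratios. Differences of the genes from the mustard ears and counts over gene lists are given with and without these 2 ears, an alternative that for the lists was added after the data were seen. The p-values measure the spread between these ears, and in whole biopsies fewer cells of a type and less RNA per cell cannot be told apart. As a check of the labelled tissue, the keratinocyte markers Krt5, Krt14 and Krt10 had median signals of 17566, 20785 and 26117 in naive ears.

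Epgn encodes epigen, a low-affinity, broadly acting EGFR ligand. In the 5 mustard ears its signal was 4959, 7347, 5008, 620 and 7895 in animals 1, 3, 5, 36 and 37. In the 21 vehicle ears it lay between 47.6 and 171, with a median of 108. The groups did not overlap, and the lowest mustard ear, that of animal 36, was still above every vehicle ear. The difference was 5.06 ± 0.46 on the log2 scale, or 33.4-fold. Naive ears held 77.3 to 212. Ears given a drug or ethanol without mustard lay between 104 and 298, below every mustard ear.

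After pretreatment the Epgn level differed between drugs. With dimercaprol the 6 ears held 68.2 to 1139, with a median of 295. With indomethacin they held 614 to 7615, with a median of 3160. With octylhomovanillamide the 5 ears held 1345, 510, 3729, 500 and 299 in animals 27, 28, 29, 30 and 33. The dimercaprol ears thus reached down into the vehicle range, while all indomethacin and octylhomovanillamide ears lay above it.

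The comparison between 2 pretreated groups holds no mustard-only ear, although earlier results of every group were known when the genes were chosen. Epgn was 9.67-fold lower after dimercaprol than after indomethacin, a log2 difference of -3.27 ± 0.54 (adjusted p = 0.000219), and 6 of 6 dimercaprol ears were below the indomethacin mean. Without any 1 ear of either group this difference stayed between -3.69 and -2.93. The groups overlapped, since the dimercaprol ear of animal 12 (1139) was above the indomethacin ear of animal 18 (614). The differences from the mustard ears, whose Epgn level prompted the choice, are a description. Epgn was 14.1-fold lower after dimercaprol than in mustard ears (log2 -3.82 ± 0.56) and 4.63-fold lower after octylhomovanillamide (log2 -2.21 ± 0.59). Without the mustard ears of animals 5 and 37 these differences were -3.36 ± 0.66 and -1.75 ± 0.68. After indomethacin the difference from mustard was -0.54 ± 0.56 (95% interval -1.68 to 0.60), and -0.086 ± 0.66 without those ears.

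The same vehicle ears serve each comparison with methylene chloride. These ears are part of the contrast that prompted the choice, so Epgn differences from them are a description with no p-value. Epgn was above them by 4.52 ± 0.43 after indomethacin and mustard and by 2.85 ± 0.46 after octylhomovanillamide and mustard. After dimercaprol and mustard the difference was 1.25 ± 0.43, with 5 of 6 ears above the vehicle mean. It was 1.56 ± 0.42 with array brightness as a covariate and 1.29 ± 0.35 without rescaling of the arrays. Without the ear of animal 6 it was 1.59 ± 0.45. Epgn after dimercaprol and after octylhomovanillamide differed by -1.61 ± 0.56 (95% interval -2.74 to -0.47), which was not called.

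**Figure D1:**
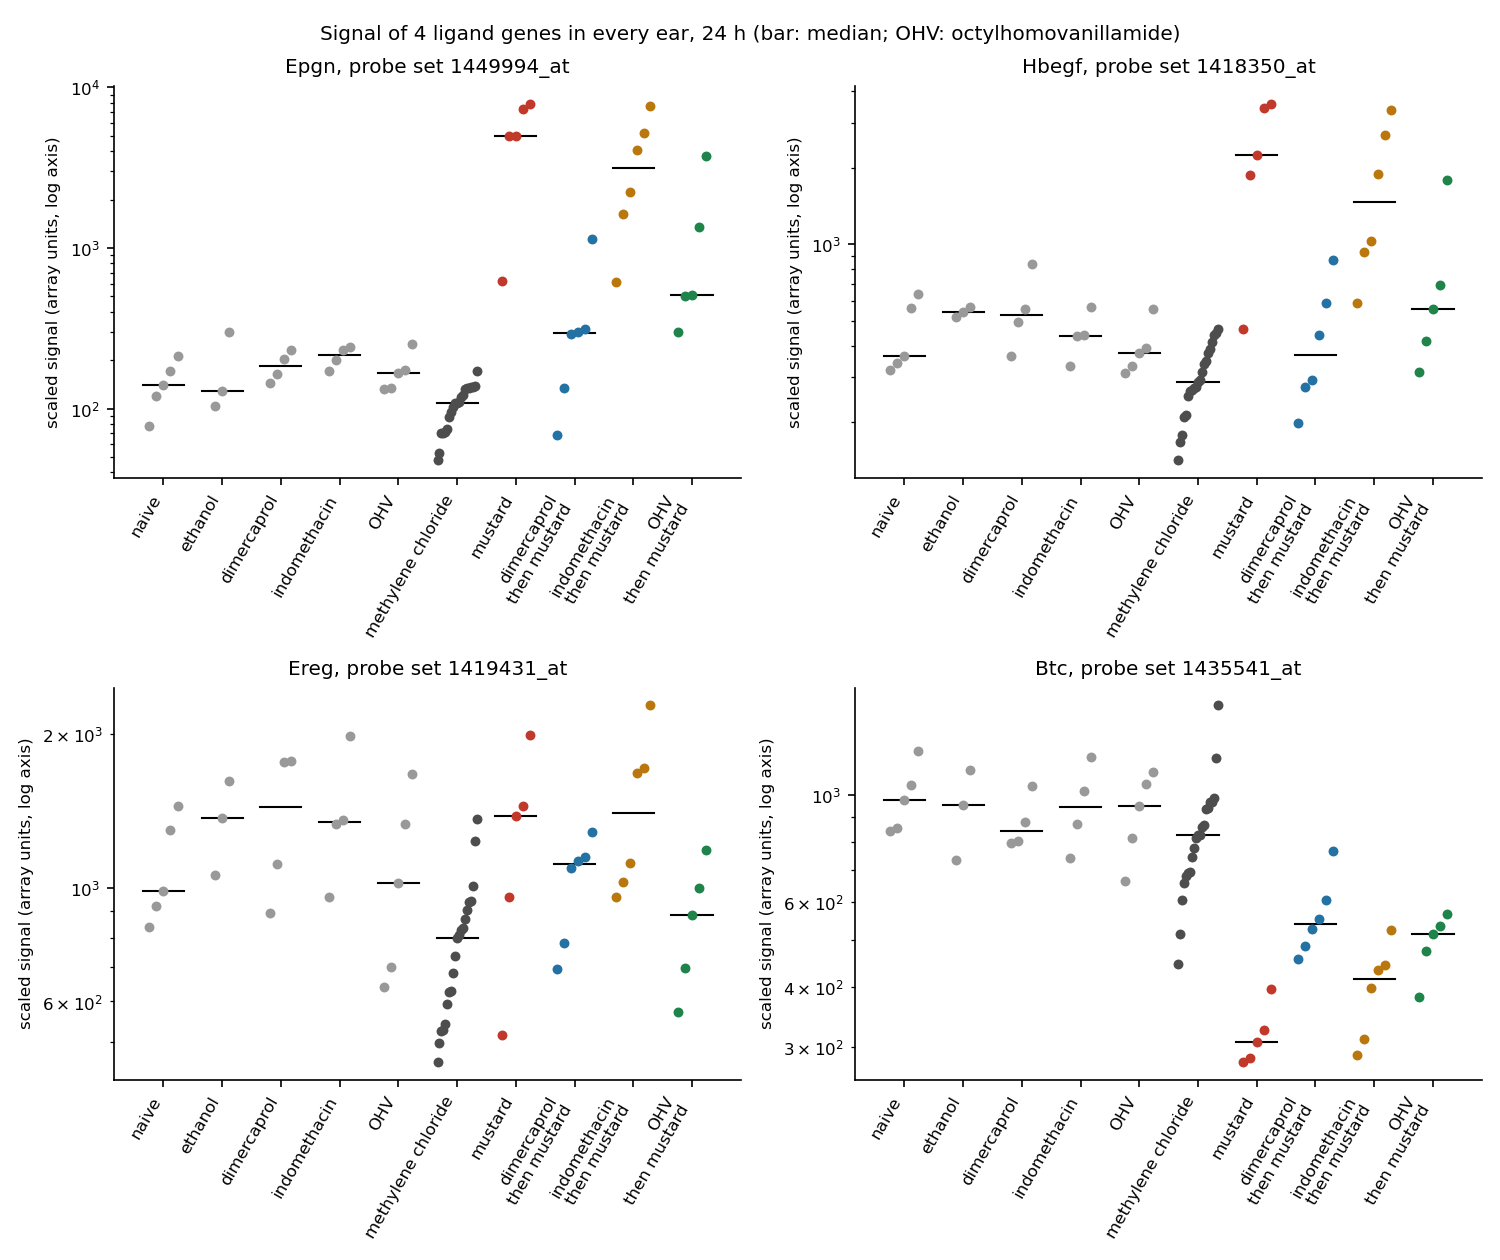
Scaled signal of Epgn, Hbegf, Ereg and Btc in every ear of the 10 groups on array A (log axis; each point is 1 ear and each bar a group median). Epgn lies between 620 and 7895 in mustard ears and between 47.6 and 171 in methylene chloride ears, and Btc lies lower in the mustard ears (280 to 395) than in any methylene chloride ear (447 to 1534).

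Hbegf encodes heparin-binding EGF-like growth factor, a ligand of EGFR and ERBB4 released by keratinocytes at wound edges. The mustard ears of animals 1, 3, 5, 36 and 37 held 2237, 3444, 1870, 465 and 3568, against 142 to 463 (median 288) in vehicle ears. The groups were separate, but animal 36 lay just above the highest vehicle ear. The difference was 2.65 ± 0.35, or 6.27-fold. With dimercaprol before mustard the ears held 198 to 868 (median 367), with indomethacin 588 to 3381 (median 1462). With octylhomovanillamide they held 693, 316, 1785, 555 and 415 in animals 27, 28, 29, 30 and 33.

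Hbegf also differed between the pretreated groups. It was 3.63-fold lower after dimercaprol than after indomethacin (log2 -1.86 ± 0.40, adjusted p = 0.00261). Against mustard ears the difference was -2.22 ± 0.42 after dimercaprol (adjusted p = 0.000147) and -1.58 ± 0.44 after octylhomovanillamide (adjusted p = 0.0108). Without the mustard ears of animals 5 and 37 the dimercaprol difference was -1.93 ± 0.49 (adjusted p = 0.012). With array brightness as a covariate it was -1.54 ± 0.51 and was not called (adjusted p = 0.0816). Without the same mustard ears the octylhomovanillamide difference was -1.29 ± 0.51 and was not called (adjusted p = 0.171), nor without animal 37 alone (adjusted p = 0.0521). After indomethacin it was -0.37 ± 0.42 (95% interval -1.22 to 0.48, adjusted p = 0.665), and -0.069 ± 0.49 without those ears. Hbegf stood 2.28 ± 0.32 above vehicle ears after indomethacin and mustard (adjusted p = 3.75e-07). The second Hbegf probe set, 1418349_at, was also lower after dimercaprol than after indomethacin, with -1.43 ± 0.30 (adjusted p = 0.00228).

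Tgfa encodes transforming growth factor alpha, an autocrine ligand of keratinocytes. On its brightest probe set, 1421943_at, mustard ears held 660, 749, 781, 430 and 599 in animals 1, 3, 5, 36 and 37, and vehicle ears 233 to 530 (median 413). The ranges overlapped through animal 36, and the difference was 0.61 ± 0.15. Tgfa stood 0.55 ± 0.14 above vehicle after indomethacin and mustard (adjusted p = 0.00157). This call was lost without rescaling, with the animal as a replicate block over complete pairs, and on the mean over the kept probe sets. Within the 4 indomethacin animals with both ears on arrays the difference spanned -0.36 to 0.33. It was below mustard ears by -0.51 ± 0.18 after dimercaprol (adjusted p = 0.0327) and by -0.60 ± 0.19 after octylhomovanillamide (adjusted p = 0.0242). Neither of these was called without animals 5 and 37 (adjusted p = 0.203 and 0.209). The dimercaprol call was also lost without the mustard ear of animal 1, 3, 5 or 37 or the dimercaprol ear of animal 6 or 11, and the octylhomovanillamide call without animal 3, 5 or 33, at adjusted p-values up to 0.101 and 0.0864. Without rescaling of the arrays, which moved the median of all probe sets by -0.35 between mustard and vehicle, Tgfa differed by -0.0018 between mustard and vehicle ears. The third Tgfa probe set, 1450421_at, held 201 to 411 in mustard ears and 237 to 479 in vehicle ears, a difference of -0.17 ± 0.13, while that of the second, 1421942_s_at, was 0.50 ± 0.19, so the probe sets of this gene differ in direction.

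Ereg encodes epiregulin, which binds EGFR and ERBB4. Its mustard ears held 1384, 1993, 958, 516 and 1446 in animals 1, 3, 5, 36 and 37, and its vehicle ears 457 to 1365 (median 798). The groups overlapped, with animal 36 near the bottom of the vehicle range and the difference at 0.61 ± 0.22. After indomethacin and mustard Ereg held 959 to 2273 and was 0.88 ± 0.20 above vehicle ears (adjusted p = 0.000588), in 6 of 6 ears above the vehicle mean. This call was lost with the animal as a replicate block over complete pairs, where the 4 within-animal differences spanned 0.084 to 1.47. Its differences from mustard ears were -0.20 ± 0.27 after dimercaprol, 0.27 ± 0.27 after indomethacin and -0.44 ± 0.28 after octylhomovanillamide, and none was called. Without animals 5 and 37 they were -0.17, 0.30 and -0.42, and without animal 36 the last was -0.72 ± 0.27 and was called (adjusted p = 0.0409).

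Btc, betacellulin, a ligand of EGFR and ERBB4, was the ligand that fell. Its mustard ears held 308, 285, 280, 325 and 395 in animals 1, 3, 5, 36 and 37, and its vehicle ears 447 to 1534 (median 825). The groups did not overlap, and the difference was -1.31 ± 0.16, or 2.47-fold lower. Here animal 36 did not stand apart, unlike for Epgn and Hbegf. Ears given dimercaprol before mustard held 456 to 764, all above all mustard ears, a difference of 0.79 ± 0.19 (adjusted p = 0.00199). It was 0.84 ± 0.23 without animals 5 and 37 (adjusted p = 0.0171) and 0.74 ± 0.25 with array brightness as a covariate, where it was not called (adjusted p = 0.0824). Ears given octylhomovanillamide before mustard held 514, 567, 380, 534 and 474 in animals 27, 28, 29, 30 and 33, or 0.61 ± 0.20 above mustard (adjusted p = 0.0312, and 0.134 without animals 5 and 37). This call was also lost without the mustard ear of animal 3 or 5 or the pretreated ear of animal 27, 28 or 30, at adjusted p-values up to 0.0819.

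Btc was below vehicle ears after every pretreatment. The difference was -1.01 ± 0.15 with indomethacin (adjusted p = 7.03e-07), -0.70 ± 0.16 with octylhomovanillamide (adjusted p = 0.0063, and 0.0819 without animal 29) and -0.52 ± 0.15 with dimercaprol (adjusted p = 0.0403). The last was -0.38 ± 0.17 with the animal as a replicate block over complete pairs and was not called (adjusted p = 0.498). It was also lost without the dimercaprol ear of animal 8, 10, 11 or 12, where the highest adjusted p was 0.167. The second Btc probe set, 1421161_at, was dim and was lower in mustard ears by -1.12 ± 0.23 and after indomethacin and mustard by -1.32 ± 0.21 (adjusted p = 2.85e-06). Drug-only, ethanol and naive ears held 662 to 1232.

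**Figure D2:**
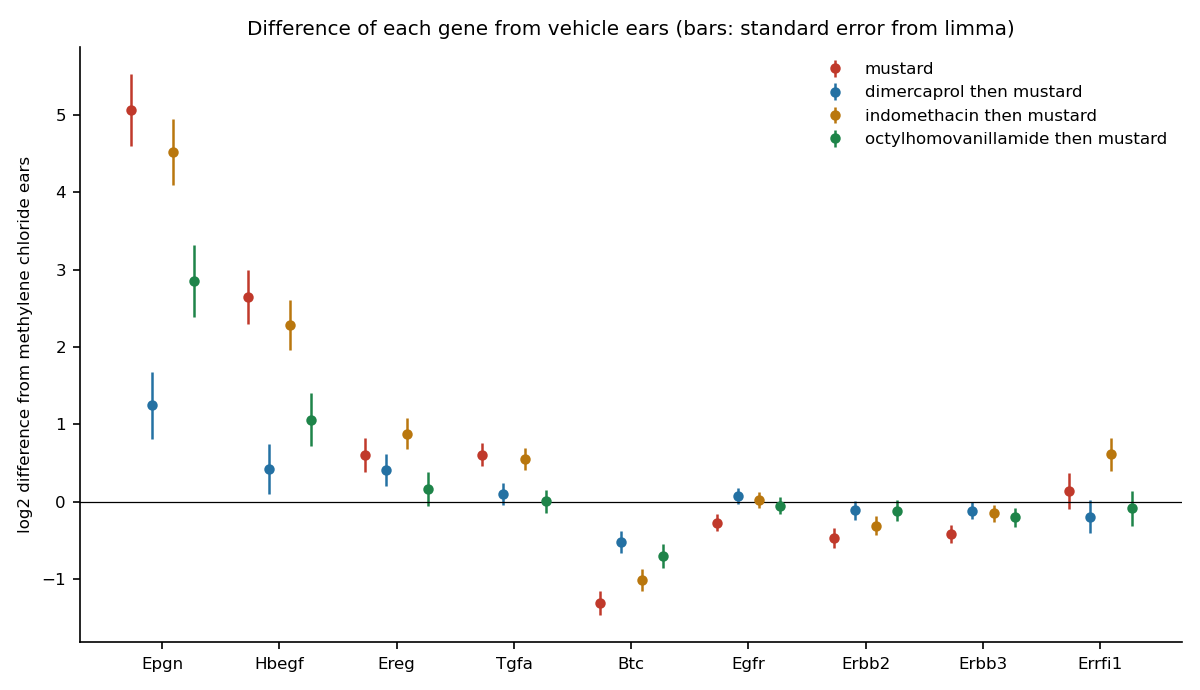
Log2 difference of each of the 9 genes from the 21 methylene chloride ears in the mustard group and the 3 pretreated groups (points with standard errors from limma, 5 or 6 ears a group). Epgn and Hbegf stand highest in the mustard and indomethacin groups, and Btc is below 0 in all 4, while Egfr is plotted on its array B probe set.

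The receptors moved less than Epgn, Hbegf and Btc. Erbb2 held 534, 441, 633, 921 and 288 in the mustard ears of animals 1, 3, 5, 36 and 37 and 562 to 1022 (median 737) in vehicle ears, overlapping through animals 5 and 36, with a difference of -0.47 ± 0.13. After indomethacin and mustard it was -0.30 ± 0.12 from vehicle ears (adjusted p = 0.0488), which was not called with the animal as a fixed replicate block over complete pairs (adjusted p = 0.0847), nor under 5 other settings (highest adjusted p = 0.215), nor without the ear of animal 16, 17, 18 or 22 (highest adjusted p = 0.192). Erbb3 held 1492, 1331, 1347, 1592 and 1231 in the same mustard ears and 1444 to 3267 (median 1866) in vehicle ears. Its difference was -0.42 ± 0.12, and no mustard ear was above the vehicle mean. Neither receptor was called in the comparisons of pretreated with mustard ears, where Erbb2 differed by 0.36 ± 0.16 and Erbb3 by 0.30 ± 0.14 after dimercaprol, or by 0.17 and 0.23 without animals 5 and 37. Without the mustard ear of animal 36 Erbb2 was called higher both after dimercaprol, at 0.56 ± 0.15 (adjusted p = 0.0036), and after octylhomovanillamide, at 0.55 ± 0.16 (adjusted p = 0.00753).

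The Egfr probe sets differed in direction. The one that stands for the gene, 1435888_at, has the highest mean log2 value, but it is on array B, and levels on the 2 arrays are on separate scales. It held 2442, 2727, 2952, 4044 and 1969 in the mustard ears of animals 1, 3, 5, 36 and 37 and 2538 to 4007 in vehicle ears, a difference of -0.27 ± 0.11. On array A the probe set of highest mean, 1460420_a_at, held 887, 1005, 1332, 1100 and 1321 in the same ears and 562 to 1463 in vehicle ears, a difference of 0.54 ± 0.15. The other 5 probe sets differed by -0.21 to 0.48. The 1460420_a_at signal was -0.52 ± 0.18 lower after dimercaprol than in mustard ears (adjusted p = 0.0239), while 1435888_at differed by 0.35 ± 0.13 the other way (adjusted p = 0.0685), or by 0.49 ± 0.13 without animal 36 (adjusted p = 0.00579) and 0.22 ± 0.15 without animals 5 and 37 (adjusted p = 0.453). With 1460420_a_at standing for the gene, Egfr would join the genes called lower after dimercaprol than in mustard ears.

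Errfi1 held 1403, 1763, 1446, 817 and 1427 in the mustard ears of animals 1, 3, 5, 36 and 37, within the vehicle range of 683 to 3223, with a difference of 0.14 ± 0.23. After indomethacin and mustard it held 1100 to 2463, or 0.62 ± 0.21 above vehicle ears (adjusted p = 0.0191), a call lost without the ear of animal 16, 19 or 22 (highest adjusted p = 0.0694). That difference was -0.18 ± 0.19 with the animal as a replicate block over complete pairs (adjusted p = 0.581), so its direction turned. The vehicle ears of animals 17, 18, 19 and 22 already held 1770, 2110, 3223 and 2416. Their ears given indomethacin and mustard held 1794, 1716, 2324 and 2463. Among the vehicle ears of other animals, those of 37 and 38 were highest, at 1786 and 1706. Those of dimercaprol animals 8, 9, 10 and 11 held 776, 811, 911 and 855. Errfi1 was -0.81 ± 0.27 lower after dimercaprol than after indomethacin (adjusted p = 0.0406), which was not called with the animal as a random replicate block (adjusted p = 0.0849), nor under 4 other settings, nor without any 1 of 8 ears (highest adjusted p = 0.111): the dimercaprol ears of animals 6, 9, 10 and 11 and the indomethacin ears of animals 16, 17, 19 and 22. The second Errfi1 probe set, 1419816_s_at, was 0.73 ± 0.20 above vehicle ears after indomethacin and mustard (adjusted p = 0.00327).

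**Figure D3:**
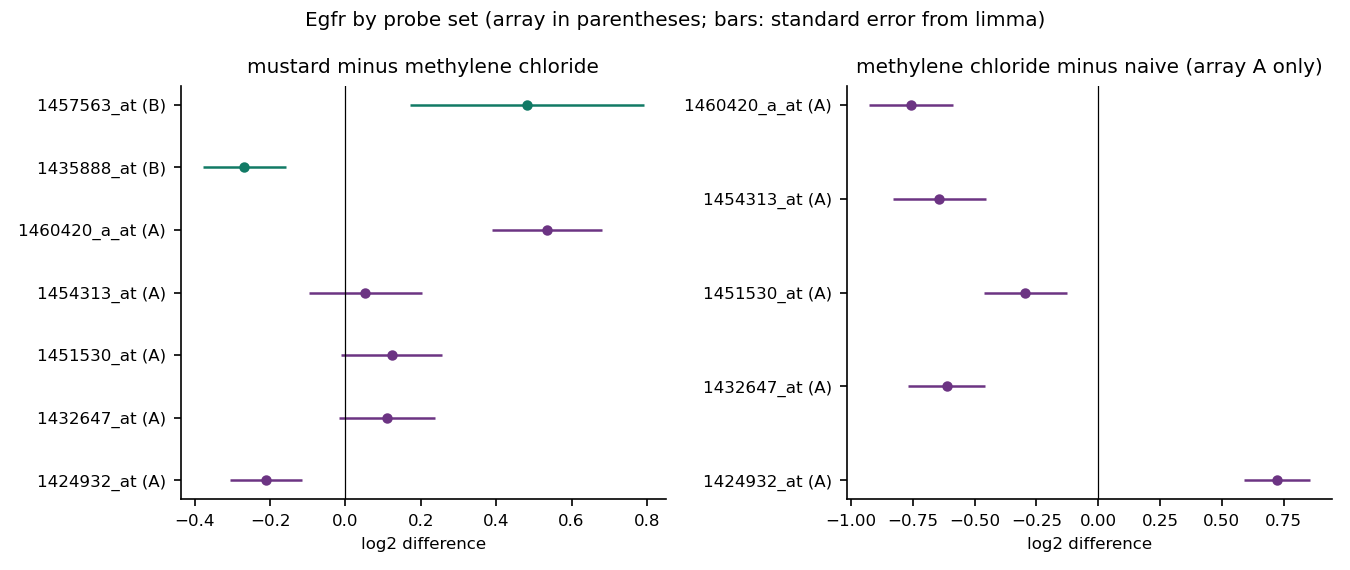
Log2 differences of each kept Egfr probe set (points with standard errors from limma; array in parentheses) between mustard and methylene chloride ears and between methylene chloride and naive ears. In the first comparison 1460420_a_at lies at 0.54 and 1435888_at at -0.27, and in the second 1424932_at lies at 0.72 while 1460420_a_at lies at -0.76.

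Counted over the 9 genes, 7 were called between mustard and vehicle ears (4 higher and 3 lower), beside 39.3% of all 14764 genes tested. The choice used this contrast, so nothing is read from the count, and it was 4 without animals 5 and 37, where 5793 probe sets were called. The members' median was 0.14 and that of all genes 0.02. Without those 2 ears the differences from vehicle ears were 4.61 for Epgn, 2.35 for Hbegf, 0.59 for Ereg, 0.53 for Tgfa and -1.35 for Btc. They were -0.14 for Egfr, -0.28 for Erbb2, -0.34 for Erbb3 and 0.070 for Errfi1. Dimercaprol before mustard against mustard alone gave 4 calls, Btc higher and Epgn, Hbegf and Tgfa lower, beside 24.9% of genes. The Epgn call is counted here as a description only, since the choice used its mustard level. Octylhomovanillamide before mustard against mustard gave the same 4 genes in the same directions, beside 15.7% of genes. Without animals 5 and 37 it gave 0 of 9, where only 191 probe sets were called over both arrays. These comparisons share the mustard ears. Indomethacin before mustard against mustard gave 0 calls in limma, beside 2.97% of genes, with 1 gene, Egfr, at an unadjusted p under 0.05.

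Against vehicle ears, indomethacin and mustard gave 7 calls of 9, beside 30.3% of genes. Of these, Epgn, Hbegf, Ereg, Tgfa and Errfi1 were higher and Btc and Erbb2 lower, and 4 genes were called with the animal as a replicate block over complete pairs. Octylhomovanillamide and mustard gave 2 calls, Epgn and Btc, beside 2.33% of genes, and dimercaprol and mustard gave 1, Btc, beside 2.57% of genes. The Epgn calls against vehicle ears are counted as a description only, since the choice used those ears. Between pretreated groups, dimercaprol against indomethacin gave 3 lower calls, Epgn, Hbegf and Errfi1, beside 8.19% of genes. Octylhomovanillamide against indomethacin gave 0 calls beside 1.37% of genes, with 5 of the 9 genes at an unadjusted p under 0.05 in limma. There Epgn was at -1.67 ± 0.56 (adjusted p = 0.0892), and without the octylhomovanillamide ear of animal 29 Epgn, at -2.20 ± 0.56, and Hbegf, at -1.59 ± 0.42, were called. Without the indomethacin ear of animal 18, Epgn (-2.09 ± 0.55), Hbegf (-1.48 ± 0.42) and Tgfa (-0.68 ± 0.18) were called. For Epgn, animal 29 was the highest octylhomovanillamide ear (3729) and animal 18 the lowest indomethacin ear (614). Leaving out either ear thus widens the difference, and nothing is read from these calls. Dimercaprol against octylhomovanillamide gave 0 calls among 0% of genes called, with 378 genes, Epgn among them, at an unadjusted p under 0.05 in limma.

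In animals with both ears on the arrays, each exposed ear was set against its own vehicle ear. Epgn was higher in the exposed than in the vehicle ear in 17 of 17 animals and Btc was lower in 17 of 17. Hbegf was higher in 15 and Ereg in 14. Within animals the Epgn difference spanned 3.21 to 5.72 with mustard alone (4 animals), 2.86 to 5.93 with indomethacin (4 animals), 1.05 to 5.16 with octylhomovanillamide (5 animals) and 0.79 to 1.56 with dimercaprol (4 animals). These 4 dimercaprol animals therefore all lay below the paired mustard and indomethacin animals. Dimercaprol animals 6 and 12, with the lowest and highest Epgn of that group (68.2 and 1139), had no vehicle ear on the arrays. The ear of animal 12 was above the mustard ear of animal 36 (620) and the indomethacin ear of animal 18 (614). When the vehicle ears were divided into 5 sets by what the other ear received, the Epgn medians lay between 86.1 and 122.

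**Figure D4:**
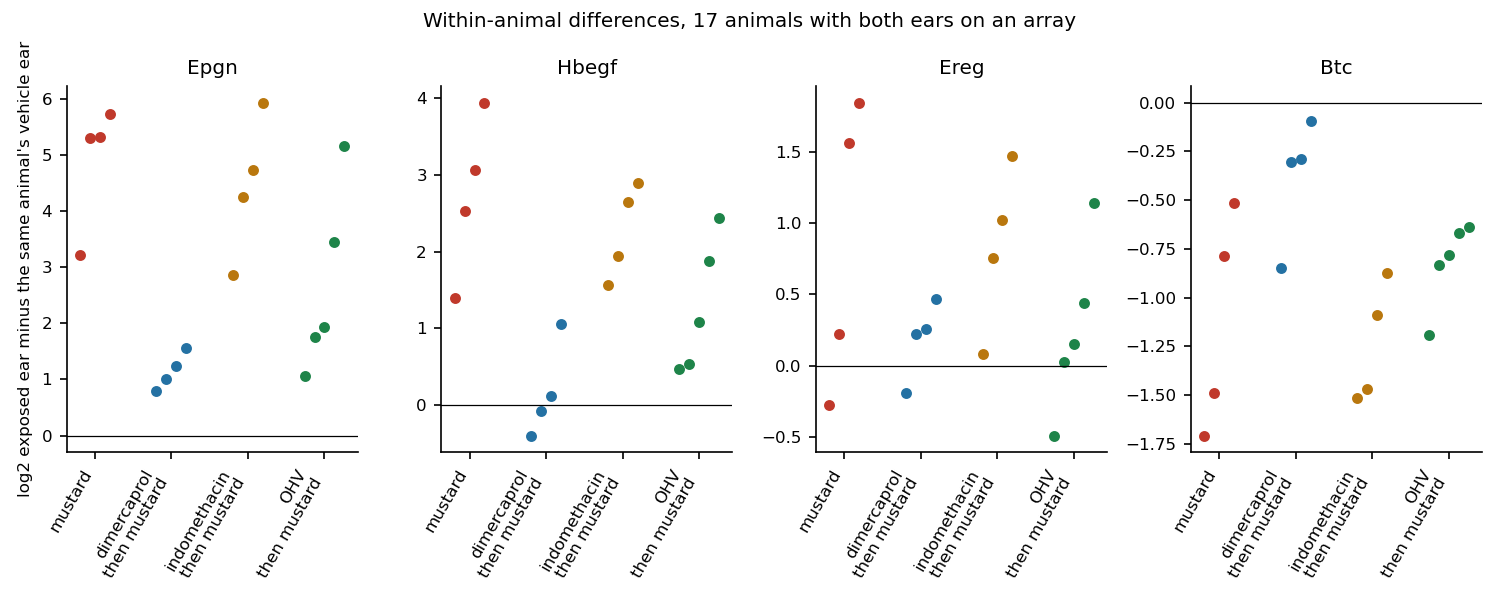
Log2 difference between the exposed right ear and the methylene chloride left ear of the same animal for 4 ligands (each point is 1 animal, 17 in all, by pretreatment). All 17 Epgn points are above 0 and all 17 Btc points below it, and the 4 dimercaprol animals have Epgn differences of 0.79 to 1.56.

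Ears of 1 group differed widely, and Hbegf and Ereg varied with Epgn among them. Across the 22 mustard-exposed ears, each taken as its deviation from its own group's mean, Epgn and Hbegf had a Pearson r of 0.94 and a Spearman rho of 0.93. Both permutation p-values were 1e-05, the smallest that 100000 permutations within groups can give, and 4e-05 after adjustment over 8 relations. Ereg followed Epgn with r = 0.86 and rho = 0.91 (permutation p = 1e-05 for both, adjusted p = 4e-05), although none of its pretreated groups was called against mustard ears. Without the 2 ears farthest out, those of animals 36 and 18, r was 0.90 for Hbegf and 0.81 for Ereg. Of 9598 other genes on array A, 0.0208% had an r with Epgn as high as Hbegf and 0.479% as high as Ereg.

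Tgfa followed less closely (r = 0.69, permutation p = 0.00094, adjusted p = 0.00251, and rho = 0.63, permutation p = 0.00367, adjusted p = 0.00734), with r = 0.51 without those 2 ears, and 3.52% of the genes compared had an r as high. Errfi1 gave r = 0.60 (permutation p = 0.0094, adjusted p = 0.0188) and rho = 0.65 (permutation p = 0.0031, adjusted p = 0.00734), and r = 0.48 without them, and 6.12% of genes had an r as high. Btc ran the other way, with r = -0.51 (permutation p = 0.0243, adjusted p = 0.0389) and rho = -0.54 (permutation p = 0.0184, adjusted p = 0.0294). Of the genes compared, 13.1% had an r at least as low as that of Btc. Egfr, here on 1460420_a_at, had r = 0.25 and rho = 0.28 (permutation p = 0.324 and 0.243), Erbb2 r = -0.50 and rho = -0.44 (permutation p = 0.038 and 0.0602, adjusted 0.0507 and 0.0688) and Erbb3 r = -0.45 and rho = -0.52 (permutation p = 0.0535 and 0.0257, adjusted 0.0612 and 0.0342). An r at least as low as that of Erbb2 was found in 14% of genes, and as that of Erbb3 in 16.5%. Array brightness itself varied with Epgn at r = -0.42 (permutation p = 0.0768). With brightness removed from both measures r was 0.92 for Hbegf, 0.86 for Ereg, 0.70 for Tgfa and 0.66 for Errfi1. Without rescaling of the arrays it was 0.92, 0.70, 0.39 and 0.31 in the same order.

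**Figure D5:**
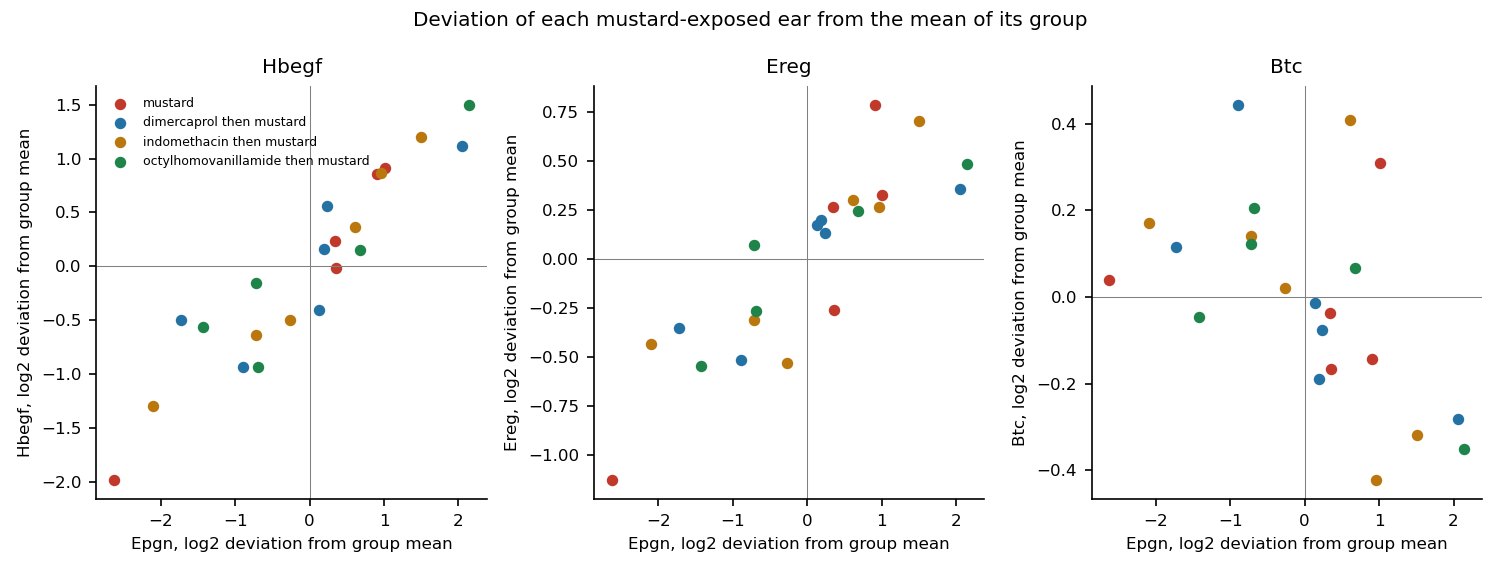
Deviation of Hbegf, Ereg and Btc from the group mean against that of Epgn in the 22 mustard-exposed ears of array A (log2 units, 1 point an ear, coloured by group). Hbegf (r = 0.94) and Ereg (r = 0.86) rise with Epgn across ears of all 4 groups, and Btc (r = -0.51) falls.

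Over the means of the 10 groups of array A, the genes whose pattern was most like that of Epgn among 9590 compared were 2610528A11Rik (Pearson r 0.99), S100a8 (0.99), S100a9 (0.99), Phlda1 (0.98) and Krt6a (0.98). S100a8 and S100a9 encode the subunits of calprotectin and Krt6a a keratin of wounded epidermis. This is a description over 10 group means, and 91 genes were over 0.95. Among the members Hbegf had r = 0.95 and Btc r = -0.94, with Tgfa at 0.74, Ereg at 0.24 and Erbb2 at -0.88.

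No member was called in the ears given a drug or ethanol without mustard. Dimercaprol, indomethacin and octylhomovanillamide each gave 0 calls of 9 against ethanol ears, beside 0% of the 9972 genes tested, and 446, 711 and 609 genes were at an unadjusted p under 0.05 in limma. Ethanol against naive animals also gave 0 calls beside 0% of genes, with 316 genes at an unadjusted p under 0.05. In each of these 4 comparisons Errfi1 was the 1 member at an unadjusted p under 0.05. Its ethanol ears held 1864, 2699 and 2253, above all 5 naive ears (1134 to 1601), a difference of 0.85 ± 0.24. Its dimercaprol ears (1388, 1566, 1635 and 1493 in animals 506, 507, 508 and 510) lay below the ethanol ears by -0.56 ± 0.23. Its indomethacin ears (3528, 3956, 3035 and 2507 in animals 511, 512, 514 and 515) lay 0.51 ± 0.23 above, and its octylhomovanillamide ears (815 to 2042) -0.61 ± 0.22 from them. With naive animals in place of the ethanol ears, a comparison that takes in the solvent, Errfi1 was 1.36 ± 0.23 higher after indomethacin (adjusted p = 0.0126). It was the 1 member called there, among 26 probe sets called. These comparisons rest on 3 ethanol ears, which are the left ears of animals that also gave a drug ear (507, 515 and 520).

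Methylene chloride ears differed from naive animals in 1 member, Egfr, beside 22.0% of 9599 genes. The vehicle animals are numbered 1 to 38 and the naive animals 501 to 503. The naive arrays were also dimmer, with a median trimmed mean of 128 against 174 on array A. The solvent and the set of animals cannot be told apart here. On 1460420_a_at Egfr was -0.76 ± 0.17 (adjusted p = 0.00138), lost without naive animal 503. Here too its probe sets disagreed, since 1424932_at was 0.72 ± 0.13 higher in vehicle ears (adjusted p = 0.000175), with no overlap (480 to 749 against 238 to 474 in naive ears), while 1432647_at and 1454313_at were lower by -0.61 ± 0.16 and -0.64 ± 0.19 (adjusted p = 0.00411 and 0.0114). Epgn differed by -0.27 ± 0.51 and was not called.

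Other genes of the pathway were taken from lists chosen with earlier results of these data known. Their counts stand beside the shares of all genes, 17.2% called higher and 22.1% lower in mustard than in vehicle ears. Against mustard ears, dimercaprol gave 15.3% higher and 9.62% lower, and octylhomovanillamide 10.4% and 5.3%. Indomethacin gave 2.32% and 0.643%. Nothing is read from counts near these shares. Up to 4 genes a list are named, picked by the smallest adjusted p for dimercaprol before mustard against mustard. Their adjusted p-values in that comparison, with or without animals 5 and 37, are therefore a description and no added support. Of 23 growth factor response genes (immediate-early genes and later targets of receptor signalling), 15 were higher and 1 lower in mustard than in vehicle ears, with a median of 0.93 against 0.02 over all genes, and 12 and none without animals 5 and 37 (median 0.69). Counts and values of the mustard contrast are again a description. After dimercaprol 10 were lower than in mustard ears and none higher (median -0.69), and after octylhomovanillamide likewise 10 and none (median -0.65). Without animals 5 and 37 the dimercaprol count was 8 and the octylhomovanillamide count 0. In those comparisons 2203 and 191 probe sets were called over both arrays without these ears. Indomethacin against mustard gave 1 higher and none lower, and 0 without those ears, where 0 probe sets were called. Mmp10, stromelysin 2, a matrix metalloprotease of migrating keratinocytes, was 3.53 ± 0.44 higher in mustard than in vehicle ears and -3.61 ± 0.54 after dimercaprol against mustard (adjusted p = 1.21e-05). Phlda1 was at 3.14 ± 0.33 and -2.79 ± 0.40 (adjusted p = 1.14e-05), Ier3, an immediate-early gene, at 1.32 ± 0.17 and -1.21 ± 0.21 (adjusted p = 4.81e-05), and Fosl1, which encodes the AP-1 subunit Fra-1, at 2.42 ± 0.30 and -1.97 ± 0.37 (adjusted p = 0.00012). Without animals 5 and 37 the dimercaprol differences of Mmp10, Phlda1, Ier3 and Fosl1 were -3.07, -2.42, -0.94 and -1.79, all still called (highest adjusted p = 0.0102).

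Of 18 genes of receptor feedback and degradation, 5 were higher and 6 lower in mustard ears, and 6 were higher and 4 lower after dimercaprol against mustard. Over all genes 17.2% were higher and 22.1% lower in mustard ears, and 15.3% and 9.62% after dimercaprol. Without animals 5 and 37 the counts of these 18 genes were 4 and 6, and 4 and 2, where 5793 and 2203 probe sets were called. Their dimercaprol median went from 0.41 to 0.14. Among them Lrig3, of a family of transmembrane proteins known for LRIG1's restraint of ERBB receptors, was at -1.37 ± 0.15 with mustard and 1.39 ± 0.18 after dimercaprol (adjusted p = 3.17e-06). Spred2 and Spry1, inhibitors of the Ras to MAP kinase relay, were at -1.49 ± 0.21 and -0.99 ± 0.15 with mustard, and at 1.45 ± 0.26 and 1.03 ± 0.18 after dimercaprol (adjusted p = 9e-05 and 5.38e-05). Ptpn1, a phosphatase that acts on receptor kinases, went the other way, at 0.39 ± 0.08 and -0.49 ± 0.10 (adjusted p = 0.00028). These 4 genes were still called after dimercaprol without animals 5 and 37, with 1.23 for Lrig3, 1.10 for Spred2, 0.90 for Spry1 and -0.42 for Ptpn1 (highest adjusted p = 0.0201).

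Of 17 adaptors and relay genes tested, 3 were higher and 7 lower with mustard, and 6 were higher and 1 lower after dimercaprol against mustard. The shares of all genes were 17.2% higher and 22.1% lower with mustard, and 15.3% and 9.62% after dimercaprol. Without animals 5 and 37 the counts of these 17 genes were 3 and 6, and 4 and 1. Gab1, a docking protein of EGFR, was at -0.71 ± 0.09 with mustard and 0.49 ± 0.11 after dimercaprol (adjusted p = 0.000905), and the lipid kinase subunits Pik3ca and Pik3r1 and the exchange factor Sos2 had the same directions. Without those ears Gab1 was at 0.47 (adjusted p = 0.0188), and Pik3r1 was no longer called (adjusted p = 0.142). Of 9 genes of ligand shedding, 1 was higher and 4 lower with mustard and 2 higher after dimercaprol, Adam9 at 0.58 ± 0.10 and Adam10 at 0.33 ± 0.12 (adjusted p = 7.68e-05 and 0.0364). With 15.3% of all genes called higher after dimercaprol, nothing is read from a count of 2 of 9. Without animals 5 and 37 the shedding counts were 0 and 2 with mustard and 1 higher after dimercaprol, with Adam9 at 0.47 (adjusted p = 0.0102) and Adam10 at 0.26, not called (adjusted p = 0.228). Of 7 other family members 3 were tested, and Nrg4, a ligand of ERBB4, was at -0.99 ± 0.21 with mustard, 0.71 ± 0.25 after dimercaprol (adjusted p = 0.0445) and 0.92 ± 0.26 after octylhomovanillamide (adjusted p = 0.019). The dimercaprol and octylhomovanillamide calls of Nrg4 were both lost without animals 5 and 37, at 0.34 and 0.56 (adjusted p = 0.532 and 0.393).

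Counts of cell type markers stand beside 17.2% of all genes called higher and 22.1% lower in mustard than in vehicle ears. After dimercaprol against mustard, 9.62% of all genes were called lower. Nothing is read from counts near these shares. Of 8 neutrophil markers tested, 5 were higher in mustard than in vehicle ears and 0 lower, and 5 were lower after dimercaprol than in mustard ears. The summed signal of the 12 measured neutrophil markers was 1434 to 4596 in mustard ears, 903 to 1504 in vehicle ears, 1016 to 1665 after dimercaprol, 1397 to 2446 after indomethacin and 1218 to 1514 after octylhomovanillamide, and it was 1603 to 2433 in naive ears. None of these markers had a group median of 0, and the granule gene Camp stayed at a median of 21.7 in mustard ears. Of 10 basal keratinocyte markers, 2 were higher and 6 lower in mustard ears, with sums of 42823 to 67534 against 55186 to 82531 in vehicle ears. Of 12 suprabasal keratinocyte markers, 5 were higher and 3 lower, and of 11 macrophage markers 3 were higher. Of 6 sebaceous gland markers tested, 3 were higher and 2 lower. Of 4 T cell markers tested, 1 was lower, Cd3g, with a median signal of 229 in vehicle and 83.2 in mustard ears, and the sums of the 6 measured overlapped (1465 to 2007 in mustard ears, 1295 to 2626 in vehicle ears). Of 11 hair follicle markers tested, 1 was higher and 1 lower, and Gata3 had medians of 1119 in vehicle and 361 in mustard ears. The hair keratins Krt25 and Krt33a had medians of 850 and 590 after indomethacin and mustard, against 276 and 180 in vehicle ears, and the hair follicle sums spanned 1343 to 10091 and 1490 to 12824. No mast cell, fibroblast, endothelial or skeletal muscle marker was called with mustard, but a marker that failed the filter on low signals could not be called. The dim mast cell marker Hdc had medians of 6.24 in vehicle and 142 in mustard ears. It was at 6.22 after dimercaprol, 41.3 after indomethacin and 14.5 after octylhomovanillamide. The mast cell sums overlapped, at 1249 to 2830 in mustard and 988 to 2406 in vehicle ears. The part of these cell types in the ligand results was not tested.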

How the data were processed

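No deposited columns were identical. The authors deposited linear intensities per probe set made with MAS5, per the submitters' processing notes; software settings are not given in the sources used here. Each array was scaled to a mean of 500 after trimming 2% from each end. Log2(signal + 16) values were fitted with limma 3.58.1 in R 4.3.3 (lmFit, then eBayes with an intensity trend), keeping probe sets whose scaled signals averaged 100 or more in the fit: 15435 on array A and 17294 on array B for the 5 mustard-series groups, 16570 for the 5 groups without mustard, and 15960 for all 10. Both ears of a naive animal were averaged. The fits had no block, and naming followed the platform annotation. Left and right ears of an animal share its number in the titles; over 17 pairs their deviations correlated at 0.17 on average (-0.10 to 0.45) against -0.03 for other animals. The members and lists were chosen with earlier results of these data known. All 10 members were to be named, with up to 4 genes a list by the smallest adjusted p for dimercaprol before mustard against mustard, and the 5 genes most like Epgn. The fits were tested on simulated data. Confidence intervals are 95%. The number of arrays limits the precision.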

Additional observations from a re-analysis of the deposited data

Results flagged for a closer look

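In 63 sets of 4 to 10 ears (each member within a group), 1 ear lay far from the rest of its group by Dixon's test; chance flags about 1 in 20. The mustard ear of animal 36 had an Epgn signal of 620, where the next lowest of the 5 mustard ears was at 4959, and the gap was 0.82 of the group's log2 range. Without it, Epgn was 5.72 above vehicle ears and -4.47 lower after dimercaprol than in mustard ears.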

How the results depend on the processing

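Of the 20 calls of members outside the mustard contrast and the Epgn differences from mustard ears, 6 held in every alternative run. The 20 include the Epgn calls against vehicle ears, which are a description. For mustard against vehicle ears the count of 7 members called was 4 with array brightness as a covariate (6303 probe sets called) and 4 without animals 5 and 37 (5793). For dimercaprol against mustard (4 called) it was 7 without rescaling, where 17182 probe sets were called, and 1 with brightness, where 784 were. For indomethacin against mustard (0 called) it was 6 without rescaling, where 8398 probe sets were called. For octylhomovanillamide against mustard (4 called) it was 2 on the mean over probe sets. The count was 0 with brightness (49 probe sets called), with the Gapdh ratio as a covariate (92), or without animals 5 and 37 (191). For dimercaprol and mustard against vehicle (1 called) it was 0 without a filter and 0 on the mean over probe sets. For indomethacin and mustard against vehicle (7 called) it was 4 without rescaling. For octylhomovanillamide and mustard against vehicle (2 called) it was 1 without rescaling, for indomethacin against ethanol (0 called) 1 with naive animals as controls, where 26 probe sets were called, and for methylene chloride against naive (1 called) 0 without rescaling. The cause was not tested.

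With the animal as a fixed replicate block over complete pairs the count was 0 for dimercaprol and mustard against vehicle and 4 for indomethacin and mustard against vehicle, where Errfi1 reversed to -0.18. Without rescaling, Ereg (-0.010) and Tgfa (-0.0018) reversed between mustard and vehicle, Ereg (0.67) and Tgfa (0.35) between dimercaprol and mustard, and Tgfa (0.11) between octylhomovanillamide and mustard, while the median of all probe sets moved by -0.35, 0.50 and 0.46. Chosen after seeing the data, the growth factor response count without animals 5 and 37 went from 10 to 0 for octylhomovanillamide and from 1 to 0 for indomethacin against mustard. Over all genes, 191 and 0 probe sets were called there.

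Vehicle ears were not left out. Leaving out 1 ear of the other groups at a time, the members called ranged 5 to 8 for mustard against vehicle, 3 to 6, 0 to 1 and 2 to 6 for dimercaprol, indomethacin and octylhomovanillamide against mustard, and 0 to 2, 5 to 7 and 1 to 2 for the same groups against vehicle. They ranged 2 to 4 for dimercaprol against indomethacin, 0 to 3 for octylhomovanillamide against indomethacin, and, leaving out 1 naive animal at a time, 0 to 1 for methylene chloride against naive. Dim signal limits Btc 1421161_at, whose mustard ears held 29.6 to 122, and small groups limit every interval.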
